A study of Mus musculus with 10 samples.

Results

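The comparison described here sets RNA that went through SLAM chemistry against RNA from the same kind of 4-thiouridine-labelled cells that was sequenced without any conversion. It uses 4 of the 10 libraries in the series, 2 of each kind, chosen by their labels and not by any measured value. All 4 came from wild-type NIH-3T3 cells, an established line of mouse embryonic fibroblasts, and all received 800 µM 4-thiouridine (4sU) for 2 h, so the label itself is shared by both sides. Total RNA of the SLAM group was treated with iodoacetamide (IAA) at elevated temperature, quenched with DTT and purified again on a column, whereas the unconverted group is labelled as having no conversion protocol. The replicates are named A and B, and the labels do not say whether they are separate cultures. The p-values rest on the spread left over all 10 libraries of the series once the shift between letters is removed. That spread may be technical. The study's labels set conversion chemistries beside unconverted and unlabelled RNA, and the question here is which genes were counted higher or lower once the RNA had been converted.

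4sU is a uridine analogue that cells take up and build into RNA made while it is present. SLAM-seq alkylates the sulfur of incorporated 4sU, after which reverse transcriptase tends to place a G opposite it, and new RNA is read from T-to-C mismatches. How much of the RNA of a gene is new is its new-to-total RNA ratio (NTR), which is near complete for short-lived transcripts and low for stable ones. Gene counts of converted and unconverted RNA from equally labelled cells are set side by side here; whether mismatches cost alignments could not be read from the counts and was not tested.

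NTR separated the libraries in the direction of their labels. Over the 10236 genes with a mean of 100 counts or more in the 4 libraries, median NTR was 52.5% in SLAM A and 61.3% in SLAM B, and 1.94% and 1.77% in unconverted A and B. The ranking of genes by NTR was nearly the same in both SLAM libraries (Spearman's rho 0.988 across genes), so their mean was used, and the 5 to 95% bounds deposited with each value had a median width of 4.51 percentage points in A and 4.25 in B. Gene counts summed to 29047565 and 32804922 in unconverted A and B and to 30903222 and 33751151 in SLAM A and B. Summed fibroblast markers (9 of 10 in the table, none at 0) ranged from 18713 to 23051 CPM (the gene count relative to library size, for these sums without TMM factors) in unconverted and from 19249 to 25619 in SLAM libraries. Summed epithelial markers stayed between 0.137 and 0.275 CPM in unconverted and between 0.193 and 0.275 in SLAM libraries (5 of 10 in the table, Esrp1 at 0 in all 4), and endothelial ones between 0.861 and 1.28 and between 1.10 and 1.27. Summed macrophage markers lay between 8.25 and 12.5 CPM in unconverted libraries and reached 15.8 in SLAM A, with Ptprc at 0 there, and adipocyte or muscle markers between 7.68 and 9.10 over all 4.

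SLAM treatment was accompanied by many small shifts in gene counts, in both directions. It joined IAA with heating, DTT and a further column purification, and the separate parts of these steps were not tested. Of 12218 genes tested, 5079 (41.6%) differed between SLAM and unconverted libraries in edgeR's quasi-likelihood test with the replicate letter as a block (Benjamini-Hochberg adjusted p under 0.05). Of these, 2443 (20% of those tested) were higher and 2636 (21.6%) were lower in SLAM. Most shifts were small: the median size among called genes was 0.319 on the log2 scale, and 564 genes (4.62%) were both called and past 1.5-fold, 260 of them higher (2.13%) and 304 lower (2.49%). That count was 980 without SLAM B and 358 in a fit of genes with a mean of 100 counts or more. In 3557 genes (29.1%) the call came with SLAM libraries that did not overlap the unconverted ones, and libraries did not overlap in 5302 genes (43.4%) whether called or not. The change within letter A and the change within letter B had the same sign in 5077 of the 5079 called genes. A test with the letter as a block favours genes whose 2 changes agree, so this agreement is largely built in. Across all genes tested, called or not, the 2 changes correlated with a Spearman's rho of 0.705. Both groups were labelled alike and the chemistry was applied to total RNA, so a shift in counts is not read here as a change in the cells. All values are relative to the rest of each library.

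The number of calls rests on the block. Without it, 42 genes passed (0.344%), 40 higher and 2 lower, while 2284 had an unadjusted p under 0.05. Of the 140 genes named by rule, 127 lost their call without the block. Those that kept it were Fam122a, Ccdc85b, Zbed5, Cebpb, Socs1, Rpl13a-ps1 and Rpl7a-ps3. Leaving out unconverted A left 3030 calls and leaving out unconverted B left 3145, against 3915 without SLAM A and 5704 without SLAM B. No gene called in both the full fit and any of these fits changed sign.

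**Figure D1:**
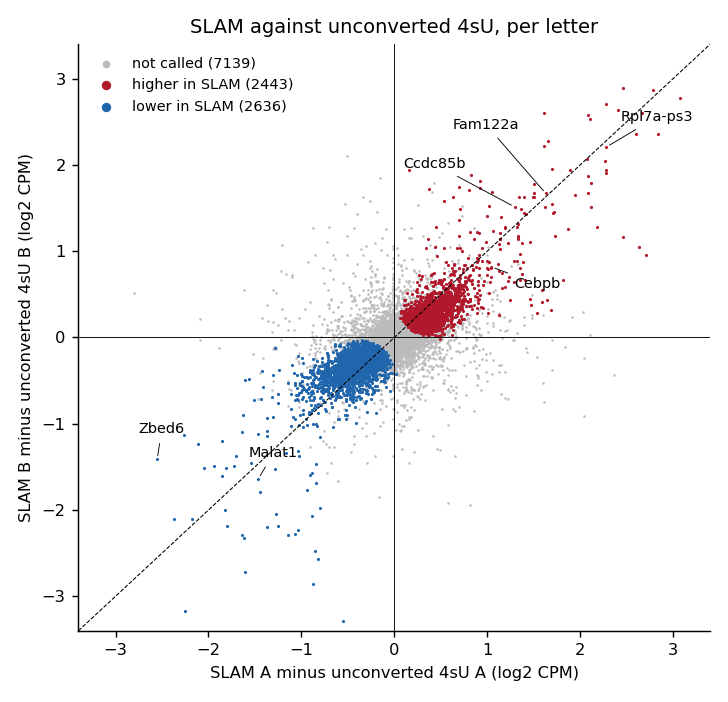
Each point is 1 of 12218 genes, with the log2 CPM difference SLAM minus unconverted in letter A on the horizontal axis and in letter B on the vertical axis. Red points are the 2443 genes called higher, blue points the 2636 called lower and grey points the rest, and called genes lie in the lower left and upper right, with Zbed6 and Malat1 at the low end and Rpl7a-ps3 and Fam122a among the high ones.

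Genes were first described by the deposited Length, a value in bases that the file does not define further. Long genes were counted lower and short genes higher after SLAM. In the shortest 20% (2446 genes, 216 to 1902 bases) the median log2 fold change was 0.18, with 910 genes (37.2%) higher and 88 (3.6%) lower. In the longest 20% (2443 genes, 5179 to 123179 bases) it was -0.25, with 91 (3.72%) higher and 1356 (55.5%) lower. The 3 bins between them had medians of 0.11, 0.01 and -0.08, so the order was the same at every step. Over all genes tested the median was 0.001.

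The Length difference was present in both letters and was wider in A. Longest minus shortest, the median moved by -0.43 in the fit, from 0.24 to -0.31 within letter A and from 0.11 to -0.19 within letter B. It was -0.29 when SLAM A was left out and -0.57 when SLAM B was left out. Across the 10236 genes with an NTR value, log2 fold change and Length had a Spearman's rho of -0.563 (-0.609 in A and -0.448 in B), whereas log2 fold change and mean CPM had 0.027. Genes are not independent replicates, so these correlations are descriptions. In 5 bins of mean CPM the longest minus shortest difference lay between -0.47 and -0.41.

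NTR gave a second gradient in the same comparison. The 2049 genes with the lowest NTR (up to 27.3%), whose RNA is mostly older than the label, had a median log2 fold change of 0.14, with 855 (41.7%) higher and 143 (6.98%) lower. The 2047 genes with the highest NTR (from 89.8%), whose RNA was nearly all made during labelling, had a median of -0.16, with 203 (9.92%) higher and 844 (41.2%) lower. The bins between had medians of 0.06, -0.03 and -0.10. The highest minus lowest difference was -0.30 in the fit, -0.19 when SLAM A was left out and -0.41 when SLAM B was left out. The correlation across genes was -0.391 with NTR from the SLAM libraries and -0.406 with NTR from the TUC libraries. The TUC libraries used a different conversion of the same label. Their counts are on neither side of this comparison but enter the fit, and SLAM and TUC NTR ranked genes nearly alike (Spearman's rho 0.995).

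**Figure D2:**
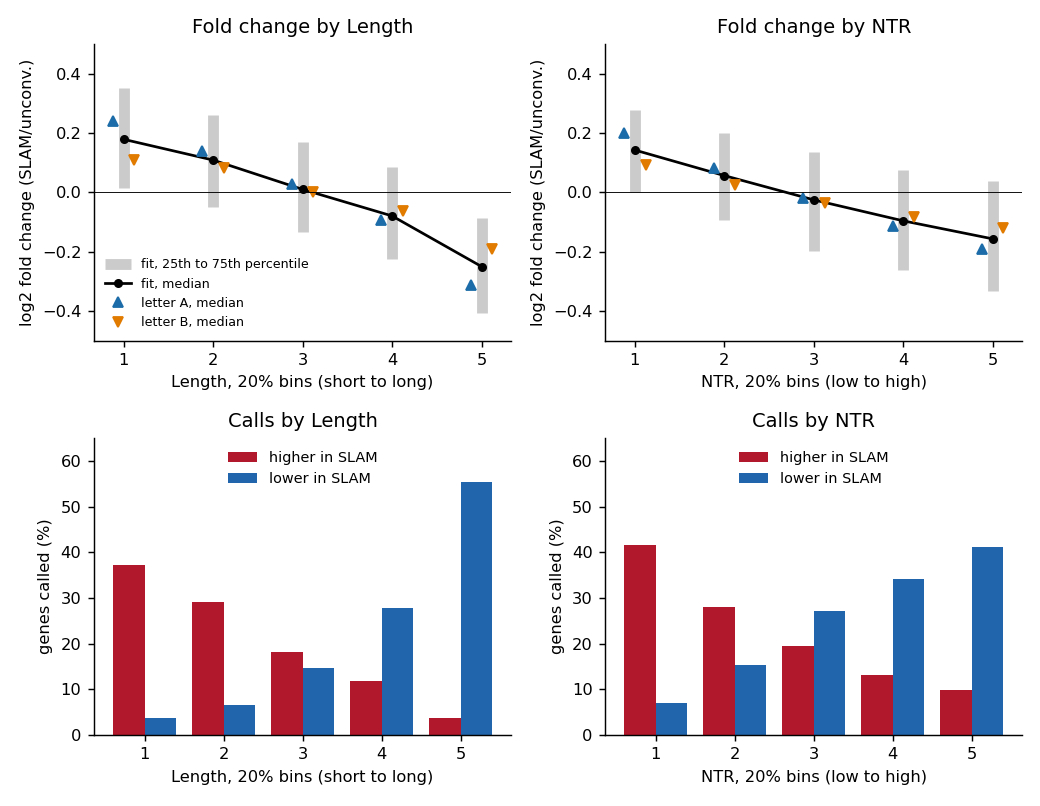
The upper panels show the log2 fold change SLAM over unconverted in 5 bins of 20% of genes by Length (left) and NTR (right): black points are medians of the fit, grey bars the 25th to 75th percentile of genes, and triangles the medians within letters A and B. The lower panels show the percentage of each bin called higher (red) and lower (blue), which cross over from 37.2% against 3.6% in the shortest bin to 3.72% against 55.5% in the longest.

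Long genes also tended to have a high NTR (Spearman's rho 0.322 across genes), so both properties were crossed. Length separated genes within every NTR bin: the longest minus shortest difference was -0.34, -0.35, -0.44, -0.43 and -0.44 from the lowest to the highest NTR bin. NTR separated genes within every Length bin, less so among short ones: highest minus lowest was -0.10 and -0.13 in the 2 shortest bins and -0.19, -0.29 and -0.21 in the other 3. The ends of the grid were the 839 short genes of low NTR, with a median of 0.19 and 420 (50.1%) called higher, and the 564 long genes of high NTR, with a median of -0.36 and 411 (72.9%) called lower. Long genes of low NTR (163) still had a median of -0.15, and short genes of high NTR (188) one of 0.08.

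The genes that went against their NTR bin differed from the rest of it in Length. In the highest NTR bin the 203 genes called higher had a median Length of 2696 bases and the 844 called lower one of 5222. In the lowest NTR bin the 855 called higher had a median of 2037 and the 143 called lower one of 4976. In the longest bin, the 91 genes called higher had a median NTR of 48.0% and the 1356 called lower one of 77.3%.

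**Figure D3:**
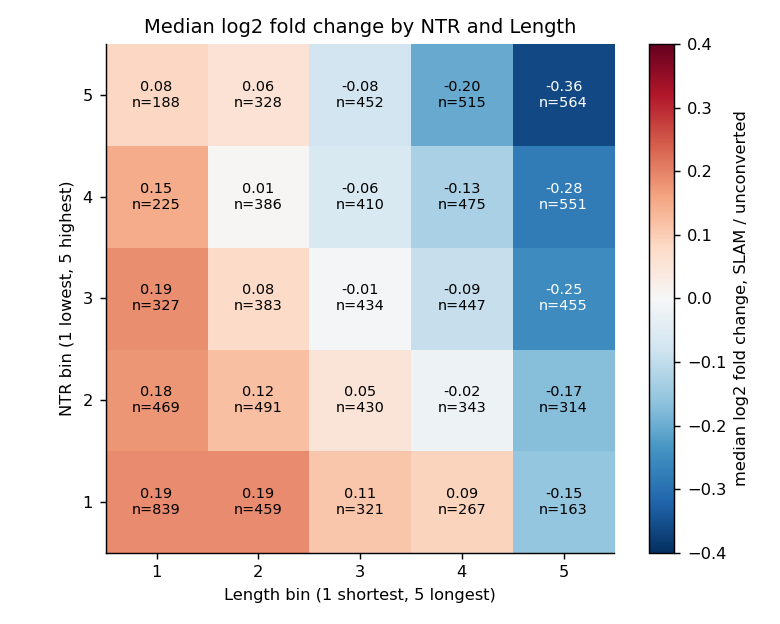
Each cell gives the median log2 fold change SLAM over unconverted for genes of 1 NTR bin (vertical, 1 lowest to 5 highest) and 1 Length bin (horizontal, 1 shortest to 5 longest), with the number of genes; red is higher and blue lower in SLAM. Values run from 0.19 for short genes of low NTR to -0.36 for long genes of high NTR.

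The same bins were read per library, as the median log2 CPM of the longest 20% minus that of the shortest 20%; CPM is not per length, so only differences between libraries are read from it. It was 1.00 in unconverted A and 1.46 in unconverted B, and 0.44 in SLAM A and 1.09 in SLAM B. SLAM was lower within each letter, but the groups overlapped, since SLAM B lay above unconverted A. Libraries of letter A lay below those of letter B in all 5 groups of the series, the untreated ones included (1.36 and 1.67). For NTR, the highest minus lowest 20% stood at -0.98 and -0.78 in unconverted A and B and at -1.41 and -0.93 in SLAM, which again overlapped. With 2 libraries against 2 no two-sided exact permutation test of such a value can give a p below 0.333.

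Gene classes were then set beside these gradients. Each class is given by its counts and median next to all genes tested (20% higher, 21.6% lower, median 0.001), and by how far its members lay, at the median, from the median of genes in the same NTR and Length cell. The lists were chosen with earlier results of these data known, and no set test was run. Class counts moved with the number of calls when a library was left out. Some of these changes are given with the class, and a count given without one is not thereby stable. Without the block, the classes described below had no called members other than 11 pseudogenes, 3 intronless genes, 2 short-lived regulators and 1 Zfp gene, all higher.

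Among long genes of high NTR, chromatin regulators fell most often of the classes described here. This list of remodellers, histone methyltransferases and coactivators had 39 of 59 tested members lower and 2 higher, with a median of -0.29, a median Length of 8187 bases and a median NTR of 92.6%. The median was -0.44 within letter A and -0.18 within letter B; leaving out SLAM A gave -0.17 with 26 members lower, and leaving out SLAM B gave -0.43 with 45 lower. Kmt2a, a histone H3 methyltransferase, had 52.2 and 93.0 CPM in unconverted A and B and 25.6 and 59.3 in SLAM A and B; the log2 fold change was -0.81 (SE 0.110, edgeR adjusted p = 4.31e-05). Chd9, a chromodomain remodeller, had 24.1 and 38.8 CPM against 11.7 and 23.5 (log2 fold change -0.85). In both genes each SLAM library was below the unconverted library of its letter and SLAM B overlapped the range of the unconverted group for Kmt2a only. The class lay 0.01 from the median of its own cells of the grid.

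Other families of mostly long or short-lived transcripts also had more members lower than higher. Ubiquitin-specific proteases, which remove ubiquitin from proteins, had 21 of 44 lower and 3 higher (median -0.22), led by Usp9x with 184 and 234 CPM in unconverted and 107 and 168 in SLAM libraries. Zinc finger genes named Zfp, most of them DNA-binding repressors with short-lived mRNA (median NTR 93.9%), had 84 of 343 lower and 40 higher (median -0.11; 53 lower without unconverted B, 23 higher without unconverted A, and a median of -0.06 without SLAM A). Kinesins, the microtubule motors, had 9 of 29 lower and 2 higher (median -0.13; -0.07 without SLAM A). The medians of these 3 families lay -0.07, 0.00 and -0.03 from their cells of the grid.

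SR and hnRNP splicing factors, which bind pre-mRNA and many of which regulate their own transcripts through alternative exons, were lower beyond their cells of the grid. Of 30 members, 18 were lower and 3 higher, with a median of -0.22, 0.19 below genes of like NTR and Length, and 20 of the 30 were both called and not overlapping between groups, against 29.1% of all genes tested. Hnrnpa3 had 940.1 and 929 CPM in unconverted A and B and 630.2 and 649 in SLAM A and B (log2 fold change -0.55, SE 0.0619, edgeR adjusted p = 9.5e-06). Srsf3 had 541 and 516 against 425 and 352 (-0.45), and Srsf10 had 149 and 153 against 114 and 113 (-0.41). None of these groups overlapped, and the class medians within the letters were -0.20 and -0.25, so the class moved no further in A than in B. Hnrnpa1, an abundant hnRNP protein gene of low NTR (22.6%) and modest Length (1918 bases), was lower as well, at 1357 and 1172 against 1120.1 and 908 CPM (-0.32).

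RNA helicases of the DEAD and DEAH box families, which unwind RNA in splicing, export and translation, had 14 of 49 lower and 5 higher. Ddx3x was at 461 and 505 CPM in unconverted and 330.2 and 349 in SLAM libraries (log2 fold change -0.51, SE 0.0502, edgeR adjusted p = 3.65e-06), and its Y-linked relative Ddx3y at 12.3 and 15.8 against 7.89 and 9.69 (-0.67). Ribosome biogenesis factors had 14 of 45 lower and 5 higher (median -0.10). Gar1, a protein of H/ACA small nucleolar RNPs, was at 54.2 and 42.4 against 32.9 and 33.9 CPM (-0.52), although its Length is 1271 bases.

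Nuclear noncoding RNAs were the lowest class by median in the full fit, though not when SLAM A was left out. Of 18 listed RNAs 8 were in the table and 7 were tested; 4 were lower, none was higher, and the median was -0.40. Malat1 (ENSMUSG00000092341), an abundant RNA of nuclear speckles, had 477 and 1122 CPM in unconverted A and B and 173 and 361 in SLAM A and B. Both SLAM libraries were below both unconverted ones, with a log2 fold change of -1.56 (SE 0.201, edgeR adjusted p = 2.71e-05) that was alike in A (-1.46) and B (-1.64). Its NTR was 37% and its Length 6983 bases, and genes in that cell of the grid had a median of -0.17.

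Neat1, the scaffold RNA of paraspeckles, had 266 and 999 CPM in unconverted A and B and 162 and 676 in SLAM A and B. It was lower in SLAM within each letter (log2 fold change -0.63, edgeR adjusted p = 0.000794) although the groups overlapped, since letter B was several times higher on both sides. Mir17hg, the host transcript of a microRNA cluster, had 19.2 and 28.3 CPM against 13.1 and 19.3 (-0.55). Meg3, an imprinted RNA, had 118 and 242 against 80.8 and 198 (-0.40, which is also the class median). Groups overlapped in both, and of the 7 RNAs tested only 1, Malat1, was called without overlap. Meg3 lost its call when unconverted B was left out (log2 fold change -0.33, edgeR adjusted p = 0.0859) and with DESeq2 (adjusted p = 0.0608). Pvt1 (-0.11), Mirg (-0.04) and H19 (-0.14) did not pass the test. The class median was -0.19 without SLAM A, where that of SR and hnRNP genes was -0.24, and -0.66 without SLAM B. RefSeq lncRNA genes as a whole had a median of -0.05, with 21 of 194 lower and 9 higher.

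Lists of immediate-early genes and short-lived regulators lay above other genes of their NTR and Length at the median. Immediate-early genes, which cells switch on within minutes of a stimulus, had a median NTR of 98%; 17 of 38 were higher and 4 lower, with a median of 0.14 that was 0.16 above their cells of the grid. The number higher was 9 with library totals, 9 without unconverted A and 10 without unconverted B, and the median then lay between 0.11 and 0.14. Klf2, a zinc finger factor, had 26.7 and 18.6 CPM in unconverted A and B and 45.1 and 28.9 in SLAM A and B (log2 fold change 0.70, SE 0.130, edgeR adjusted p = 0.000487). Jund, an AP-1 subunit, had 48.9 and 48.7 against 85.7 and 66.1 (0.63), and Myc, the growth regulator, 82.3 and 73.1 against 116 and 101 (0.48). In all 3 genes both SLAM libraries were above both unconverted ones. Fos (0.27, edgeR adjusted p = 0.161) and Jun (0.09, 0.233) did not pass the test.

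A list of short-lived transcription regulators, which shares members with the immediate-early list, had 18 of 35 higher and 5 lower (median 0.21, 0.21 above its cells). Cebpb, a bZIP factor of acute responses, had 189 and 186 CPM in unconverted A and B and 391 and 328 in SLAM A and B (log2 fold change 0.94, SE 0.0911, edgeR adjusted p = 3.44e-06). Snai1, a repressor of epithelial genes, had 57.4 and 72.8 against 88.4 and 109.9 (0.61). A list of intronless genes, drawn up with the high values of Cebpb, Ccdc85b and Fam122a in view, had 15 of 22 higher and 2 lower (median 0.35, 0.28 above its cells; 0.20 without SLAM A). It shares Jun, Jund and other members with the lists above, so these counts are not separate.

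p53 targets had 6 of 30 members higher and 6 lower, close to all genes tested; without unconverted A they had 1 higher and 3 lower. Trp53inp1, which promotes p53-dependent death and autophagy, had 14.3 and 29.0 CPM in unconverted A and B and 7.79 and 14.4 in SLAM A and B (log2 fold change -0.96, SE 0.0831, edgeR adjusted p = 1.23e-06), and Eda2r, a TNF receptor family member, 16.9 and 24.3 against 11.8 and 15.6 (-0.58). Bbc3, which encodes the death protein PUMA, was higher (0.45) with a Length of 1814 bases against 5432 and 4752 for the other two, and lost its call without unconverted B (edgeR adjusted p = 0.0632). Cdkn1a, the p21 cell cycle inhibitor, had 244 and 245 CPM against 234 and 231 and did not pass the test (-0.07, edgeR adjusted p = 0.255). Mdm2, the p53 ubiquitin ligase, passed narrowly (-0.21, edgeR adjusted p = 0.0259) and not when either unconverted library or SLAM A was left out (adjusted p from 0.119 to 0.205).

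Secreted factors held members of both directions. Inhba, an activin subunit with a Length of 6390 bases, had 93.2 and 116 CPM in unconverted A and B and 56.7 and 75.6 in SLAM A and B (log2 fold change -0.66, SE 0.0791, edgeR adjusted p = 1.46e-05). Tgfb1, with 2573 bases, had 38.3 and 49.1 against 62.1 and 71.3 (0.62, SE 0.0685, edgeR adjusted p = 8.35e-06). The class as a whole had 3 of 22 higher and 6 lower.

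Among stable and short messages of housekeeping machines, more members were called higher than lower. Cytosolic ribosomal protein genes (median NTR 13.7%, median Length 1048 bases) had 29 of 78 higher and 4 lower, with a median of 0.13 that was 0.20 within letter A and 0.03 within letter B and 0.06 below their cells of the grid. Rpl19 had 1145 and 876 CPM in unconverted A and B and 1726 and 1111 in SLAM A and B (log2 fold change 0.47), so SLAM B overlapped the unconverted group; 3 of the 78 members were called with groups that did not overlap, against 29.1% of all genes tested. The number higher was 11 without unconverted A, 16 without unconverted B or SLAM A and 53 without SLAM B, and without SLAM A the median was 0.05 with 13 lower. Mitochondrial ribosomal protein genes had the same number higher (29 of 78) and 2 lower, with 9 of the 78 called without overlap between groups. Proteasome subunits had 13 of 45 higher and 3 lower, with 0 called without overlap and a median 0.08 below their cells of the grid. Leaving out 1 library gave 13 (unconverted A) to 39 (SLAM B) higher for the former and 5 (either unconverted library) to 22 (SLAM B) for the latter, with medians of 0.07 and 0.03 without SLAM A.

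Nuclear genes of oxidative phosphorylation had 27 of 77 higher and 9 lower, with a median of 0.06, 0.11 below genes of like NTR and Length; without SLAM A the median was 0.00, and the number higher ran from 10 (without unconverted A) to 37 (without SLAM B). Cox6c, a subunit of cytochrome c oxidase, stood apart with 171 and 161 CPM in unconverted A and B and 121 and 113 in SLAM A and B. Its log2 fold change was -0.50 in both letters (SE 0.0527, edgeR adjusted p = 5.57e-06) with an NTR of 8.61%. Glycolysis genes had 9 of 19 higher and 1 lower. Gapdh had 2636 and 2062 CPM against 3992 and 2493 (0.44, edgeR adjusted p = 0.000305), 0.60 within letter A and 0.27 within letter B with overlapping groups, and Eno1 and Aldoa had log2 fold changes of 0.48 and 0.44.

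Cytoskeletal genes were more often higher than lower. Of 42 actin and SRF target genes 22 were higher and 7 lower (median 0.17; 0.11 without SLAM A), close to their cells of the grid (0.04 above). Actb, cytoplasmic beta-actin, had 3754 and 3397 CPM in unconverted A and B and 5578 and 4835 in SLAM A and B (log2 fold change 0.54, SE 0.0649, edgeR adjusted p = 1.53e-05). Zyx, a focal adhesion protein, had 677 and 728 against 1055 and 1014 (0.56). Actg1, the gamma-actin gene, moved less (0.19) and lost its call when either unconverted library or SLAM A was left out. Of 18 tubulin genes 12 were higher and 2 lower (median 0.28, 0.13 above their cells).

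Fibroblast matrix genes included a long message that rose. Col1a1, the collagen I alpha chain, had 1543 and 2079 CPM in unconverted A and B and 2401 and 3443 in SLAM A and B; SLAM libraries were above the unconverted ones, with a log2 fold change of 0.68 (SE 0.0656, edgeR adjusted p = 3.15e-06). Its Length is 5930 bases, in the longest bin, where 3.72% of genes were higher, and its NTR is 15.4%. Collagens as a family had 6 of 25 higher and 4 lower (median 0.07, 0.14 above their cells), among the lower ones Col12a1 (-0.36), whose call was lost without SLAM A (edgeR adjusted p = 0.0506). Thy1, a surface marker of fibroblasts, was at 425 and 345 against 531 and 418 CPM (0.30), and Pdgfra, their PDGF receptor, at 277 and 384 against 208 and 315 (-0.35), both with overlapping groups.

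Cell cycle lists held members of both directions. DNA replication genes had 11 of 44 higher and 6 lower, with the licensing factors Cdt1 higher (82.7 and 76.4 against 107 and 99.1 CPM, 0.37) and Cdc6 lower (52.9 and 48.0 against 38.1 and 36.0, -0.44), at Lengths of 2696 and 4802 bases and nearly the same NTR (94.6% and 94.1%). G2 and mitosis genes had 6 of 37 higher and 10 lower, Aspm, a spindle pole protein, among the lower ones (-0.52). Cholesterol synthesis genes had 8 of 25 each way, and Hmgcs1, an early enzyme of the pathway with an NTR of 97.5%, had 625 and 605 against 446 and 421 CPM (-0.51). Heat shock and chaperone genes had 8 of 25 higher and 5 lower, translation initiation factors 16 of 53 and 11, Rab GTPases 5 of 45 and 8, solute carriers 24 of 194 and 49, and histone genes 5 of 26 and none, with 21 of the 26 histone genes not called. Without unconverted A the members higher numbered 5 for DNA replication, 2 for cholesterol synthesis, 2 for heat shock, 6 for initiation factors and 10 for solute carriers, and the median of cholesterol synthesis genes turned from 0.07 to -0.03 without SLAM A.

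**Figure D4:**
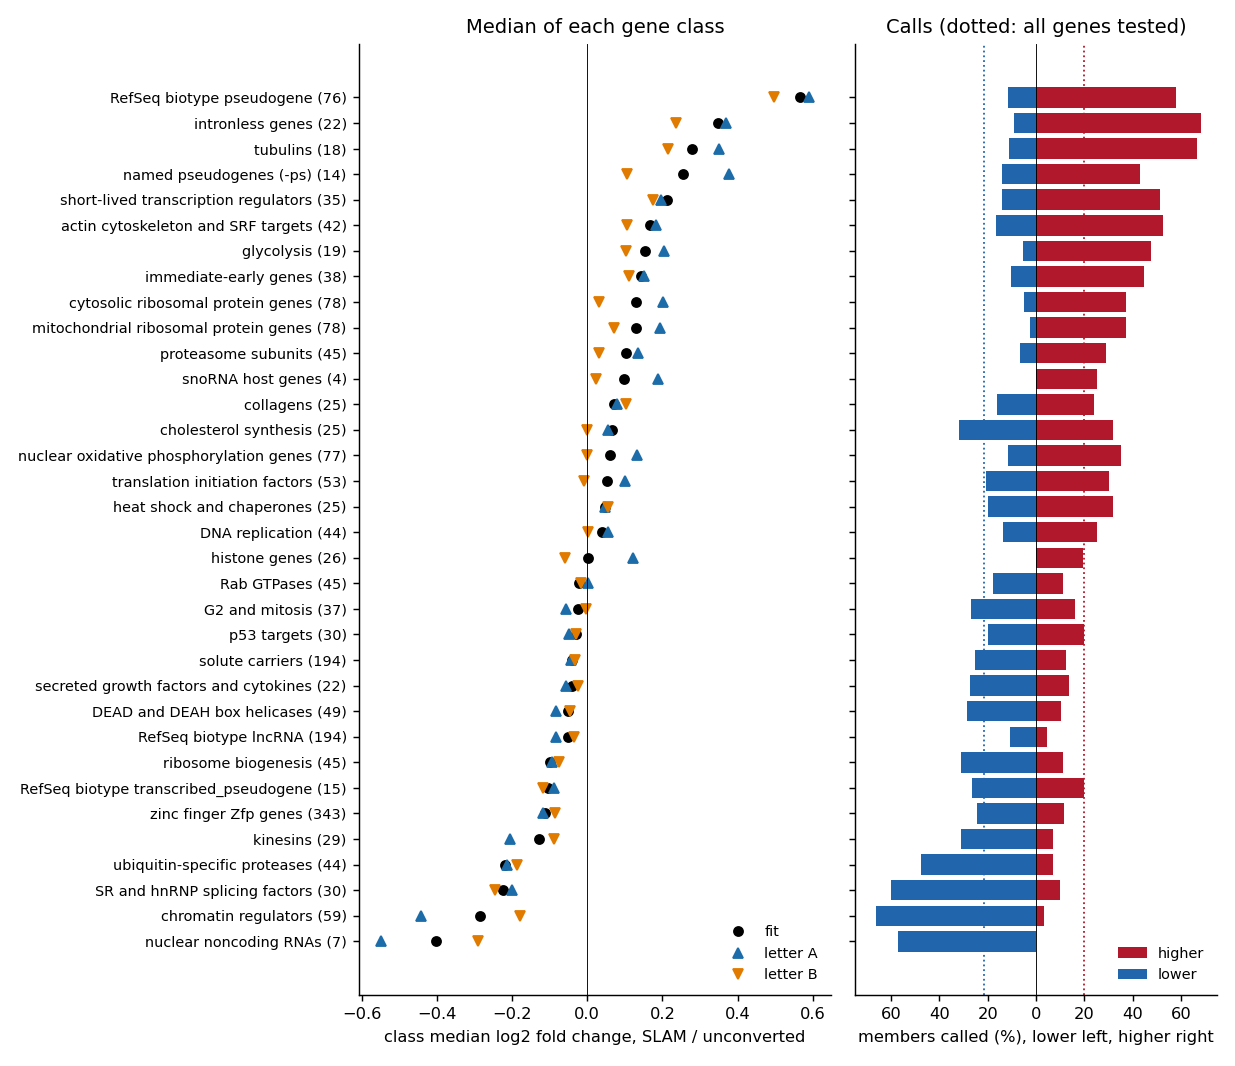
The left panel shows the median log2 fold change SLAM over unconverted of each gene class (number of members tested in brackets) in the fit (black) and within letters A and B (triangles). The right panel shows the percentage of members called lower (blue, to the left) and higher (red, to the right), with dotted lines at 21.6% and 20% for all genes tested; RefSeq pseudogenes have the highest median (0.57) and nuclear noncoding RNAs the lowest (-0.40).

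The 12 highest and 12 lowest fold changes are plotted per library for called genes that reached 10 CPM in the higher group, had groups that did not overlap and had no predicted, clone or pseudogene symbol; several, such as Fam122a and Socs1, reached that level only in the SLAM group. Fam122a (ENSMUSG00000074922), which encodes an inhibitor of the phosphatase PP2A, had 3.67 and 3.53 CPM in unconverted A and B and 11.5 and 11.3 in SLAM A and B, or 3.60 ± 0.101 against 11.4 ± 0.101 (SD, n = 2). Ccdc85b, a coiled-coil protein gene, had 19.9 and 17.5 against 48.8 and 50.2 (log2 fold change 1.41). In both, replicates lay close together, while their distance from the other group follows from the rule by which these genes were picked. At the low end Zbed6, a transcription factor gene that derives from a transposon, had 47.0 and 74.0 CPM against 7.96 and 27.8 (-1.80, SE 0.205, edgeR adjusted p = 1.03e-05), -2.55 within letter A and -1.41 within letter B.

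Some of these genes lie inside or across other genes. In RefSeq's GRCm38.p6 table, used for neighbours only because the build of the counts is not given in the sources used here, 8 of the 12 lowest genes and 5 of the 12 highest overlap the span of another gene, against 43.1% of all genes tested. Zbed6 overlaps Zc3h11a, Tmppe overlaps Glb1, Fam122a overlaps Pip5k1b, Ccdc85b overlaps Fosl1 and Rsc1a1 overlaps Ddi2. The strand setting of the counting is not given either, so reads of these genes and of their partners may not be separable, and their part in the shifts was not tested.

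**Figure D5:**
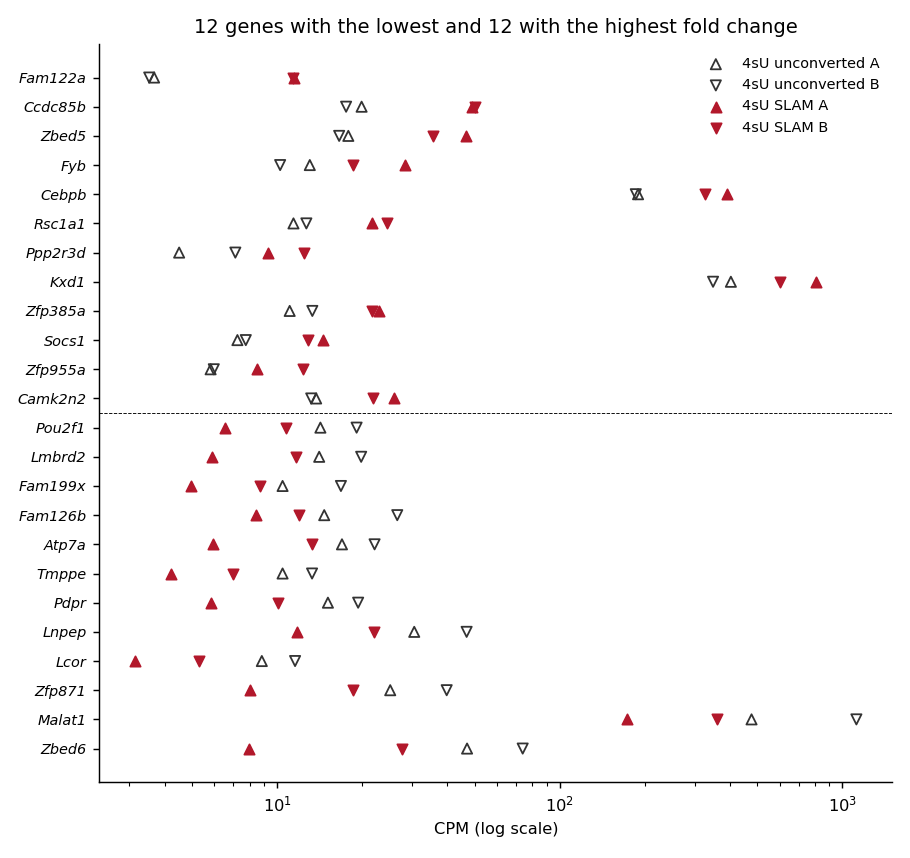
CPM (log axis) of the 12 genes with the highest (above the dashed line) and the 12 with the lowest fold change among called genes that reached 10 CPM in the higher group and had no predicted, clone or pseudogene symbol, with open triangles for unconverted and filled triangles for SLAM libraries, pointing up for A and down for B. In every gene shown the filled and open symbols do not overlap, which the rule for naming these genes requires.

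Pseudogenes, many of them copies of mature mRNAs set back into the genome, were the class with the highest median. Of 76 tested genes of RefSeq biotype pseudogene, 44 were higher and 9 lower (median 0.57). The value depends on rare ones: in a fit of genes with a mean of 100 counts or more it was 0.14. The grid holds only genes with such a mean over the 4 libraries, and its 47 pseudogenes lay, at the median, 0.01 from their cells. Reads can be shared between a copy and its parent, and deposited counts were not whole for 26.0 and 26.8% of genes in unconverted and 29.3 and 30.3% in SLAM A and B, so counts of copies are uncertain.

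Copies and parents moved apart in both directions. Rpl7a-ps3 had 5.23 and 4.16 CPM in unconverted A and B and 25.6 and 19.4 in SLAM A and B (log2 fold change 2.26, SE 0.140, edgeR adjusted p = 4.67e-08), whereas Rpl7a, the parent, had 1224 and 923 against 1810.0 and 1116 (0.42). Rpl13a-ps1 had a log2 fold change of 3.21, from 0.208 and 0.241 to 2.22 and 2.03 CPM, and Rpl13a one of 0.01. Rps2-ps6 went down, from 168 and 109 to 84.7 and 59.0 CPM (-0.94), while Rps2 stood at 0.13 and did not pass the test. Ftl1-ps1 was lower (-0.24) and Ftl1, ferritin light chain, higher (0.26; not called without unconverted A). Eno1b and Eno1 (0.65 and 0.48) moved the same way. Copies at a few CPM carry little weight beside their parents: the sum of Rpl7a-ps3 and Rpl7a rose by 0.58 in letter A and 0.29 in letter B on the log2 scale.

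The TUC libraries, in which the same label was converted with osmium tetroxide and an ammonium compound instead, give the same genes under another conversion. They share the SLAM libraries with the contrast used below and the unconverted libraries with their own comparison, so values are given side by side only. By Length bin, the median log2 fold change of TUC over unconverted was 0.20 in the shortest and -0.23 in the longest bin, against 0.18 and -0.25 for SLAM. TUC minus SLAM medians were 0.01 and 0.02 in these bins, and 2458 genes (20.1%) differed between TUC and SLAM in the same edgeR fit, 1223 of them (10%) higher in TUC.

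Single genes differed between the chemistries, and the share of members that did so varied among classes. Malat1 was at 792 and 799 CPM in TUC A and B, higher than in SLAM by 1.73 on the log2 scale (SE 0.203, edgeR adjusted p = 5.76e-05). Zbed6, in contrast, was at 17.9 and 20.0 in TUC, and TUC minus SLAM was 0.14 (SE 0.227, edgeR adjusted p = 0.716). Kmt2a (-0.08, SE 0.115), Usp9x (0.02, SE 0.0758) and Eif3a (0.17, SE 0.0753), an initiation factor subunit with a log2 fold change of -0.58 in SLAM, also had no call between the chemistries. All 12 of the highest genes were lower in TUC than in SLAM, with differences from -0.48 (Camk2n2) to -1.30 (Fam122a); they were chosen for high SLAM values, so this is a description. Of the 30 SR and hnRNP genes 19 differed between TUC and SLAM (median 0.19 higher in TUC), and of the 59 chromatin regulators 8 (median -0.02), against 20.1% of all genes tested. Col1a1 was lower in TUC (TUC minus SLAM -0.72, SE 0.0656, edgeR adjusted p = 5.25e-06). Malat1, Col1a1 and the SR and hnRNP genes were likewise picked out by their SLAM values, and no class was tested as a whole.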

How the data were processed

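Total RNA-seq of NIH-3T3 cells was taken from 1 deposited table. Tools named in the submitters' processing notes are STAR 2.7.10b, Bowtie2 2.3.0 and cutadapt, without roles; no source used here gives the build, annotation, counting tool or strand setting. Expected counts per gene were deposited without scaling, per the file headers and values. A fraction per gene and library was deposited as a posterior mode with bounds, per the file headers, and is read as NTR; the headers do not name the quantity. Length, in bases, was deposited without a definition. 38 columns of values per sample were not used.

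Groups and letters come from sample titles. Expected counts were rounded, filtered with filterByExpr (12218 of 17053 genes), TMM-scaled and tested with edgeR 4.0.16 (limma 3.58.1, R 4.3.3) over all 10 libraries with group and replicate letter as terms, adjusted by Benjamini-Hochberg. The letter is a block because the comparison was defined so; the shift from A to B was correlated between groups (Pearson's r across genes from 0.584 to 0.690 in 10 pairs), and A and B of each compared group differed beyond counting noise (chi-square over degrees of freedom 42.4 and 74.6). CPM use TMM factors unless given per library total. Values per letter are log2 CPM differences with a prior count of 2. NTR bins take genes with a mean of 100 counts or more. Named genes were the 12 highest and 12 lowest and the 8 most abundant each way among called, non-overlapping genes of 10 CPM or more with no predicted, clone or pseudogene symbol, up to 3 members per class, nuclear noncoding RNAs and 7 reference genes; copies of named genes were added after their values were seen. 15966 symbols (93.6%) matched RefSeq. The fit was tested on simulated data with the same letter shift in all groups, so that test cannot decide whether the block suits these data. Members, lists and tests were chosen with earlier results of these data known. Alternatives were other scalings, filters, rounding and bins, DESeq2 1.42.0, no block and leaving out each library. No sequence is given, since transcript sequences were not used here.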

Additional observations from a re-analysis of the deposited data

Results flagged for a closer look

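15 of the 24 genes with the highest or lowest fold change also differed between the chemistries in a direct edgeR contrast (adjusted p under 0.05). The share was 20.1% of all genes tested and 34.2% of the genes called between SLAM and unconverted libraries. Both contrasts use the SLAM libraries, and the genes were chosen for extreme SLAM values, which favours such an excess. A call here is a difference in the size of the shift and need not be one of direction. 3 of the lowest genes were higher in TUC than in SLAM on the log2 scale: Malat1 by 1.73, Fam126b by 0.754 and Fam199x by 0.532. All 12 of the highest were lower in TUC than in SLAM. TUC minus SLAM was -1.30 for Fam122a, -1.07 for Rsc1a1 and -1.01 for Zfp955a. It was -0.894 for Ppp2r3d, -0.878 for Ccdc85b, -0.872 for Zbed5, -0.682 for Socs1 and -0.678 for Cebpb. It was -0.629 for Zfp385a, -0.546 for Fyb, -0.504 for Kxd1 and -0.482 for Camk2n2. The other 9 of the lowest genes, Zbed6 and Zfp871 among them, had no call between the chemistries.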

How the results depend on the processing

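Without the replicate block, 42 genes were called (40 higher, 2 lower). Leaving out 1 library gave 3030 to 5704 calls in all, 1287 to 2881 higher and 1618 to 2823 lower. Calls past 1.5-fold ran from 395 to 980. DESeq2 with the block gave 4086 calls, 4079 of them shared. No shared call changed sign under any setting. Library totals in place of TMM moved the median of all genes to -0.04 and gave class medians of 0.11 for immediate-early genes, 0.18 for short-lived regulators, -0.26 for SR and hnRNP genes and -0.26 for ubiquitin-specific proteases. The NTR difference was -0.105 and -0.132 within the 2 shortest Length bins. Pseudogenes had a median of 0.142 among genes of 100 counts or more. With 1 library left out, class medians ranged from 0.178 to 0.231 for short-lived regulators, from -0.658 to -0.192 for nuclear noncoding RNAs, from 0.111 to 0.208 for actin and SRF targets, from -0.237 to -0.167 for ubiquitin-specific proteases and from -0.432 to -0.168 for chromatin regulators. The Length and NTR differences kept their sign in all settings run.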
